A study of Mus musculus with 9 samples.

Results

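Genes that mark the oocyte, together with the maternal factors that the oocyte stores for the early embryo, were followed in ovaries of mice given cyclophosphamide or caulerpin. The set holds 33 genes chosen by symbol, and all 33 were found among the 19517 genes of the authors' deposited table. The study sequenced RNA of ovarian tissue from female athymic BALB/c nude mice, and every animal carried xenograft tumours. These were grown from MDA-MB-231 cells, an established human line of breast cancer. The CAU group of 3 samples had caulerpin, an alkaloid made by green algae, the CTX group of 3 samples had cyclophosphamide, an alkylating chemotherapy drug, and the UT group of 3 samples had no treatment. For CAU the labels mention no cyclophosphamide, and they leave unsaid whether those mice also had it. They give no dose, time or age. Athymic mice lack most T cells, which limits all 3 groups alike as a model. All 12 granulosa cell markers listed for the ovary were in the table, but levels could not be checked.

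The deposited values are, for each gene, its log2 fold change with the p and adjusted p that DESeq2 gave, in each of 3 comparisons, and no value per library was used. Each log2 fold change is given here with a standard error (SE) worked back from its p. A gene was called changed at an adjusted p under 0.05 over all genes. The second group named in a column was read as the numerator, which the file does not state. With this reading Cdkn1a, a cell cycle inhibitor gene induced by DNA damage, was at 1.99 (SE 0.32, adjusted p = 9.15e-07) in CTX over UT in the authors' deposited table. The opposite reading would turn every sign below. Sequencing depth is unknown here. The labels speak of replicates but not of separate mice, and p-values here reflect whatever spread, technical or between animals, those replicates hold.

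Oocytes are enclosed in follicles, where granulosa cells surround them. Resting primordial follicles form the reserve of the ovary, and loss of that reserve is a known effect of alkylating drugs. As an oocyte grows it builds the zona pellucida, a glycoprotein coat, secretes growth factors that act on granulosa cells, and stores RNA and protein that carry the embryo until its own genome is active. In whole-ovary RNA, fewer oocytes and less of a transcript per oocyte cannot be told apart. Many members serve the growing oocyte, and no follicle counts were used, so the size of the primordial reserve was not tested.

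No member passed the threshold in any of the 3 comparisons in the authors' deposited table. For CTX over UT, 0 of 33 members were called, where 1.29% of all 19260 genes were, and 2 of 33 had an unadjusted p under 0.05, where 10.2% of all genes did. Of all genes 0.472% were called higher and 0.82% called lower, and 4.42% were higher and 5.79% lower at the unadjusted p, where 1 member was higher (Bmp15) and 1 lower (Sohlh1). Between CAU and CTX, 0 of 33 were called and 1 of 33 had an unadjusted p under 0.05, against 0.442% and 5.36% of 19245 genes. There 0.312% of all genes were called higher and 0.13% lower, and 3.32% were higher and 2.04% lower at the unadjusted p, where the member was lower (Kit). Between CAU and UT, 0 of 33 were called and 1 of 33 had an unadjusted p under 0.05, against 0.0518% and 3.46% of 19302 genes. Here 0.0311% of all genes were called higher and 0.0207% lower, and 1.2% were higher and 2.26% lower at the unadjusted p, where the member was lower (Sohlh1). In each comparison the count of 0 is near the share of all genes called.

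The differences were small as well as uncalled. The median log2 fold change of the members was 0.08 in CTX over UT, where that of all genes was -0.03. It was -0.11 in CAU over CTX and 0.03 in CAU over UT, where the medians of all genes were 0.0040 and -0.0087. As linear ratios the member medians were 1.06, 0.930 and 1.02. In each comparison the 95% intervals of 31 of 33 members lay within a 2-fold change either way, and the 2 exceptions were Figla and Sohlh1 each time. The intervals of 26 members in CTX over UT, 27 in CAU over CTX and 25 in CAU over UT also lay within a 1.5-fold change either way. These are separate intervals for each gene, based on 3 samples a group.

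**Figure D1:**
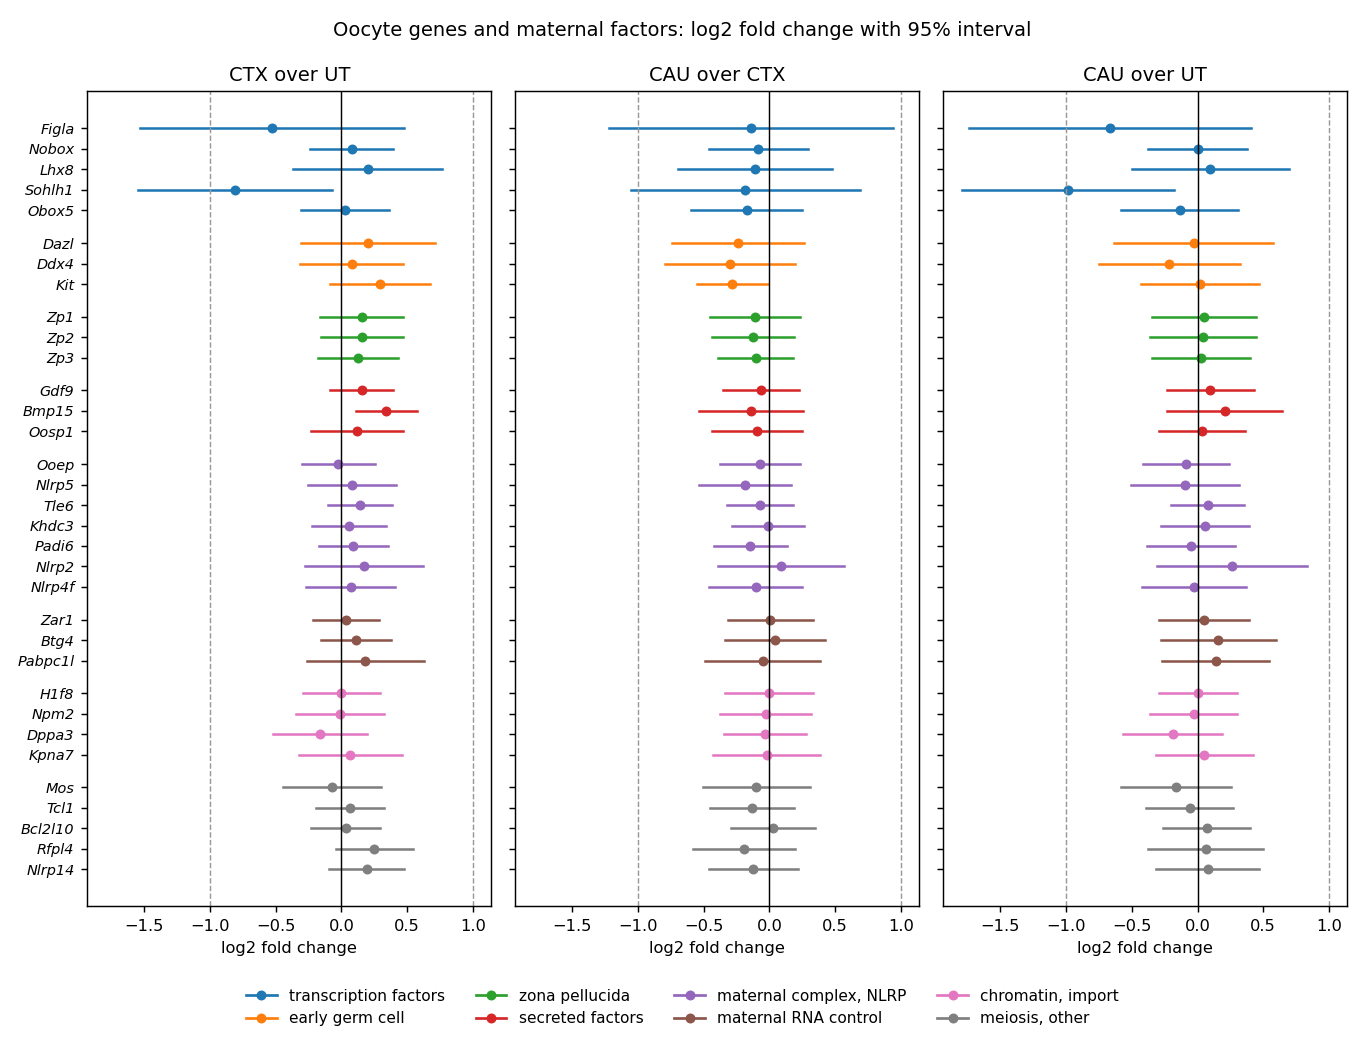
Log2 fold change (x axis) of each of the 33 members (rows, coloured by role), with the 95% interval from the implied SE as a line, in CTX over UT, CAU over CTX and CAU over UT; dashed lines mark a 2-fold change. The intervals of Figla and Sohlh1 are the widest and reach past a 2-fold fall in each panel, while the other 31 stay inside both dashed lines.

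The precision of the members was close to or better than that of the median gene. Their median SE was 0.16 in CTX over UT, 0.18 in CAU over CTX and 0.20 in CAU over UT, where the medians of all genes were 0.21, 0.18 and 0.24. For a member of median precision to be called, it would have needed a change of at least 1.46-fold in CTX over UT, 1.57-fold in CAU over CTX or 1.80-fold in CAU over UT. These sizes are the SE times the smallest z that would have passed in that comparison. The robust spread of z over all genes was 1.01 in CTX over UT, 0.841 in CAU over CTX and 0.711 in CAU over UT. In the comparisons with CAU it is narrower than a standard normal distribution, so SEs and sizes needed there may be too large. Among genes whose SE lay in the range of the members, 1.74% were called in CTX over UT, 0.33% in CAU over CTX and 0.055% in CAU over UT.

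**Figure D2:**
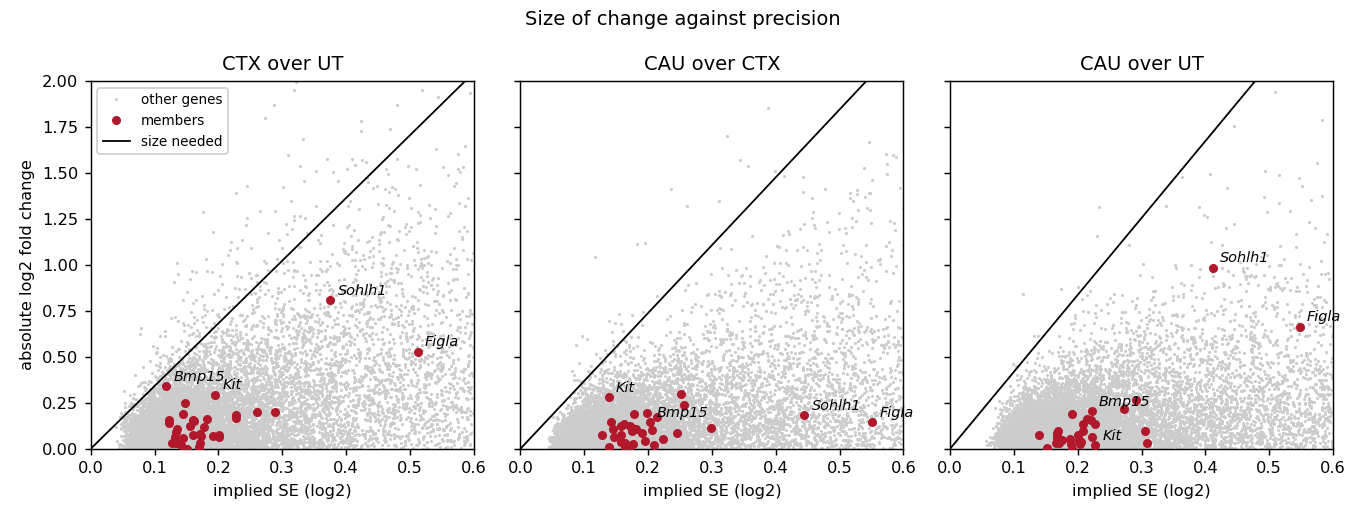
Absolute log2 fold change (y axis) against implied SE (x axis, log2 units) for the 33 members (red) and the other genes (grey) in the 3 comparisons, with axes ended at 2 and 0.6; the line is the size a gene needed for an adjusted p under 0.05. All 33 members lie under the line in each panel, and Bmp15 comes nearest to it, in CTX over UT.

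Among the transcription factors of the oocyte, Sohlh1 had the lowest value of all 33 members in both comparisons with UT. SOHLH1 is a basic helix-loop-helix protein of oocytes in primordial and primary follicles, where it acts upstream of other oocyte regulators. Sohlh1 was at -0.81 (SE 0.38, 95% interval -1.55 to -0.07, p = 0.0311, adjusted p = 0.415) in CTX over UT in the authors' deposited table. It was at -0.99 (SE 0.41, 95% interval -1.79 to -0.18, p = 0.0168, adjusted p = 1.00) in CAU over UT and at -0.18 (SE 0.44) in CAU over CTX in the authors' deposited table. Both intervals against UT exclude 0 when read singly, and neither value passed over all genes. The 2 comparisons share the UT libraries, so they are not separate evidence.

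Figla, whose basic helix-loop-helix product is required for primordial follicles to form and for the zona genes to be transcribed, was at -0.53 (SE 0.51) in CTX over UT and -0.66 (SE 0.55) in CAU over UT in the authors' deposited table. Its intervals include 0 and reach below a 2-fold fall, so these data do not separate such a fall from no difference. Nobox, a homeobox factor needed beyond the primordial stage, was at 0.08 (SE 0.16) in CTX over UT in the authors' deposited table. Lhx8, a LIM homeobox factor of early oocyte differentiation, was at 0.20 (SE 0.29), and Obox5, of the oocyte-specific homeobox family, at 0.03 (SE 0.17), in CTX over UT in the authors' deposited table. In CAU over CTX all 5 factors were between -0.18 and -0.08 in the authors' deposited table. In CAU over UT, Nobox was at 9.3e-05 (SE 0.19), Lhx8 at 0.10 (SE 0.30) and Obox5 at -0.14 (SE 0.23) in the authors' deposited table. No test of the difference between Sohlh1 and the other factors could be made without values per library.

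The sequence upstream of Sohlh1 is shown because this gene had the lowest values against UT. It covers the 250 bases before the annotated start on the minus strand, chr2:25847249-25847498 of GRCm38.p6 (RefSeq). Capitals mark the E-box CANNTG, the site of basic helix-loop-helix factors, which reads the same on both strands, and the homeobox elements TAATTG and TAATTA on either strand.
Sohlh1: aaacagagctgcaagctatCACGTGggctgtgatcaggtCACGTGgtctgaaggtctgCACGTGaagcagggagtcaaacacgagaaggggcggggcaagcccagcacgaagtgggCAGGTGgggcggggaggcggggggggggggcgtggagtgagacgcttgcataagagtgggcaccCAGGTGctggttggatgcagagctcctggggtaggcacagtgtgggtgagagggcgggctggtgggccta
It holds 5 E-boxes and neither homeobox element. Of 27025 genes with an upstream sequence of this length, 69.3% hold an E-box.

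Dazl, Ddx4 and Kit mark germ cells from the primordial stage onward. Dazl and Ddx4 encode an RNA-binding protein and an RNA helicase of germ cells, and Kit encodes the receptor through which granulosa-derived KIT ligand acts on the oocyte. Kit was at 0.29 (SE 0.19, adjusted p = 0.708) in CTX over UT, at -0.28 (SE 0.14, 95% interval -0.55 to -0.01, p = 0.0416, adjusted p = 0.881) in CAU over CTX and at 0.02 (SE 0.23) in CAU over UT in the authors' deposited table. Its ligand gene Kitl was at 0.25 (SE 0.17) in CTX over UT, -0.26 (SE 0.13) in CAU over CTX and 0.0053 (SE 0.20) in CAU over UT in the authors' deposited table. Ddx4 was at 0.08 (SE 0.20) in CTX over UT, -0.30 (SE 0.25) in CAU over CTX and -0.22 (SE 0.27) in CAU over UT in the authors' deposited table. Dazl was at 0.20 (SE 0.26) in CTX over UT, -0.24 (SE 0.26) in CAU over CTX and -0.03 (SE 0.31) in CAU over UT in the authors' deposited table. These 3 genes had the lowest values of all members in CAU over CTX, with a median of -0.28. None was called.

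Kit is also a mast cell gene. Of 9 measured mast cell markers 0 passed in any comparison. Of all genes 1.29% were called in CTX over UT, 0.442% in CAU over CTX and 0.0518% in CAU over UT. Among the 9 markers, 8 were negative in CTX over UT with a median of -1.61, and 7 were positive in CAU over CTX with a median of 0.32. In CAU over UT 6 of them were negative and 3 positive, with a median of -1.14. An unadjusted p under 0.05 was found for 3 of the 9, all lower, in each comparison with UT. Of all genes 5.79% were lower at this p in CTX over UT and 2.26% in CAU over UT. The 3 were Tpsb2, Mcpt4 and Cma1, at -1.81 (SE 0.60), -2.14 (SE 0.80) and -1.69 (SE 0.68) in CTX over UT. They were at -1.57, -1.75 and -1.56 in CAU over UT, which shares the UT libraries. In CAU over CTX 2 of the 9 were higher at this p, where 3.32% of all genes were. For Gata2, the most precisely measured of the 9 markers, the value was -0.53 (SE 0.27) in CTX over UT in the authors' deposited table. It was 0.60 (SE 0.29) in CAU over CTX and 0.08 (SE 0.35) in CAU over UT in the authors' deposited table. Gata2 thus differed in sign from the list median in CAU over UT. Kit differed in sign from the list medians in CTX over UT and in CAU over CTX. The part of mast cells in its values was not tested.

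The zona pellucida genes gave nearly equal values. ZP1, ZP2 and ZP3 are the glycoproteins of the mouse zona, and FIGLA with its partner TCF3 activates their genes through E-boxes. In CTX over UT, the authors' deposited table gives 0.15 (SE 0.16) for Zp1, 0.16 (SE 0.16) for Zp2 and 0.12 (SE 0.16) for Zp3. In CAU over CTX the values were -0.11 (SE 0.17) for Zp1, -0.13 (SE 0.16) for Zp2 and -0.11 (SE 0.15) for Zp3 in the authors' deposited table. In CAU over UT they were 0.05, 0.04 and 0.03 (SE 0.20, 0.21 and 0.19) in the authors' deposited table. The 3 genes lay within a range far smaller than the SE of any of them, in each comparison.

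The upstream sequence of Zp3 is shown as a member that FIGLA is known to activate. It covers the 250 bases before the start on the plus strand, chr5:135979855-135980104 of GRCm38.p6 (RefSeq), with capitals as for Sohlh1.
Zp3: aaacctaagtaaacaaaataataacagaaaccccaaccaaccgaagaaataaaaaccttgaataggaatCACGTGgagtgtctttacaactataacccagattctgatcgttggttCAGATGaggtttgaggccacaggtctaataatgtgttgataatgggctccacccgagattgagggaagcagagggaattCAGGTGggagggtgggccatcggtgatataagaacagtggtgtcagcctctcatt
It holds 3 E-boxes, of which that beginning at -181 reads CACGTG and that beginning at -55 reads CAGGTG, counted from the transcription start. Zp1 and Zp2 are named only.

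Among the secreted factors, Bmp15 came nearest to the threshold of any member. GDF9 and BMP15 are growth factors of the TGF-beta family through which the oocyte acts on the granulosa cells around it. Bmp15 was at 0.34 (SE 0.12, 95% interval 0.11 to 0.57, p = 0.00406, adjusted p = 0.141) in CTX over UT in the authors' deposited table, a ratio of 1.27, where 1.32 would have been needed. It was at -0.14 (SE 0.20) in CAU over CTX and at 0.21 (SE 0.22) in CAU over UT in the authors' deposited table. Gdf9 was at 0.15 (SE 0.12) in CTX over UT, -0.07 (SE 0.15) in CAU over CTX and 0.10 (SE 0.17) in CAU over UT in the authors' deposited table. Oosp1, which encodes a secreted protein of the oocyte, was at 0.12 (SE 0.18) in CTX over UT, -0.10 (SE 0.17) in CAU over CTX and 0.03 (SE 0.17) in CAU over UT in the authors' deposited table. Read singly, the interval of Bmp15 in CTX over UT excludes 0, and those of Gdf9 and Oosp1 include it.

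The upstream sequence of Bmp15 is shown for that reason, on the minus strand at chrX:6320725-6320974 of GRCm38.p6 (RefSeq).
Bmp15: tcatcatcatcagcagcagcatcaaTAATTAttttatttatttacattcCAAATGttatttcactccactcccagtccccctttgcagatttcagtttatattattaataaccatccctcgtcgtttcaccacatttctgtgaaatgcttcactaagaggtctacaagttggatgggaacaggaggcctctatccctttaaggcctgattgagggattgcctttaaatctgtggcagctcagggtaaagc
It holds 1 E-box and 1 TAATTA element. Of the 27025 genes, 5.65% hold TAATTA and 8.30% hold TAATTG in this window, and the members with either are Bmp15, Nlrp5 and Ooep.

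Genes of the pathway of these growth factors were measured as well. The list of 24 genes holds receptors, SMAD proteins and granulosa targets of GDF9 and BMP15, and also the protease gene Furin. Of the 24, 1 rose and 0 fell in CTX over UT, and 0 were called in the other comparisons. Of all genes, 0.472% were called higher and 0.82% lower in CTX over UT. In CAU over CTX 0.442% of all genes were called, and in CAU over UT 0.0518%. The gene of the 24 that rose was Grem1. It encodes gremlin, a secreted BMP antagonist that cumulus granulosa cells make in response to the oocyte. Grem1 was at 1.27 (SE 0.33, adjusted p = 0.0150) in CTX over UT, -0.40 (SE 0.32) in CAU over CTX and 0.88 (SE 0.44) in CAU over UT in the authors' deposited table. The receptor gene Bmpr2 was at 0.24 (SE 0.10, p = 0.0112, adjusted p = 0.251) in CTX over UT, -0.05 (SE 0.16) in CAU over CTX and 0.20 (SE 0.17) in CAU over UT in the authors' deposited table. The receptor gene Bmpr1b was at 0.11 (SE 0.10) in CTX over UT, 0.22 (SE 0.11, p = 0.0542, adjusted p = 0.954) in CAU over CTX and 0.34 (SE 0.12, p = 0.00353, adjusted p = 0.701) in CAU over UT in the authors' deposited table. The median of the 24 genes was 0.06 in CTX over UT, -0.04 in CAU over CTX and -0.00072 in CAU over UT.

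Genes of the subcortical maternal complex and its relatives showed small values throughout. OOEP, NLRP5, TLE6 and KHDC3 form this complex under the membrane of the mouse oocyte, and PADI6 is needed for the cytoplasmic lattices that go with it. In CTX over UT, Tle6 was at 0.14 (SE 0.12), Padi6 at 0.09 (SE 0.13), Nlrp5 at 0.08 (SE 0.17), Khdc3 at 0.06 (SE 0.14) and Ooep at -0.02 (SE 0.14) in the authors' deposited table. Nlrp2 and Nlrp4f, further NLRP family genes of the oocyte, were at 0.17 (SE 0.23) and 0.07 (SE 0.17) in CTX over UT in the authors' deposited table. In CAU over CTX the 7 genes ranged from -0.19 (Nlrp5) to 0.09 (Nlrp2), and in CAU over UT from -0.10 (Nlrp5) to 0.26 (Nlrp2), in the authors' deposited table. The interval of Tle6, the most precise of all members in CAU over CTX, was -0.32 to 0.18 there.

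Genes that store, translate or clear maternal RNA were also close to 0. ZAR1 takes part in storing maternal RNA, PABPC1L is the poly(A)-binding protein of the oocyte, and BTG4 is the adaptor that brings the deadenylase to maternal RNA at meiotic maturation. For CTX over UT, Zar1 was at 0.03 (SE 0.13), Btg4 at 0.11 (SE 0.14) and Pabpc1l at 0.18 (SE 0.23) in the authors' deposited table. In CAU over CTX, Zar1 was at 0.0072 (SE 0.16), Btg4 at 0.04 (SE 0.20) and Pabpc1l at -0.05 (SE 0.22) in the authors' deposited table. In CAU over UT, Zar1 was at 0.05 (SE 0.17), Btg4 at 0.16 (SE 0.22) and Pabpc1l at 0.14 (SE 0.21) in the authors' deposited table.

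Among maternal chromatin and import factors, H1f8 had the values nearest to 0. H1f8, the oocyte linker histone gene, was at -0.00040 (SE 0.15, 95% interval -0.30 to 0.29) in CTX over UT, -0.0025 (SE 0.17) in CAU over CTX and 0.0051 (SE 0.15) in CAU over UT in the authors' deposited table. Npm2, which encodes the nucleoplasmin of the oocyte nucleus, was at -0.0099 (SE 0.17) in CTX over UT, -0.03 (SE 0.18) in CAU over CTX and -0.03 (SE 0.17) in CAU over UT in the authors' deposited table. Kpna7, an importin alpha gene of the oocyte, was at 0.07 (SE 0.20) in CTX over UT, -0.02 (SE 0.21) in CAU over CTX and 0.05 (SE 0.19) in CAU over UT in the authors' deposited table. Dppa3, whose product guards maternal DNA methylation, was at -0.16 (SE 0.18) in CTX over UT, -0.04 (SE 0.16) in CAU over CTX and -0.19 (SE 0.19) in CAU over UT in the authors' deposited table. In CTX over UT the signs of Npm2 and H1f8, and of Ooep above, turn when values are centred on the median gene.

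The remaining maternal factors were within 0.25 of 0 on the log2 scale in each comparison. Rfpl4, a RING finger gene of the oocyte, was at 0.25 (SE 0.15, p = 0.0920, adjusted p = 0.620) in CTX over UT, -0.20 (SE 0.20) in CAU over CTX and 0.06 (SE 0.22) in CAU over UT in the authors' deposited table. Nlrp14, an NLRP gene of the oocyte, was at 0.19 (SE 0.14) in CTX over UT, -0.12 (SE 0.17) in CAU over CTX and 0.08 (SE 0.20) in CAU over UT in the authors' deposited table. Mos, the kinase gene that holds the egg in meiotic arrest, was at -0.07 (SE 0.19) in CTX over UT, -0.10 (SE 0.21) in CAU over CTX and -0.16 (SE 0.21) in CAU over UT in the authors' deposited table. Tcl1, a co-activator of AKT kinase, was at 0.07 (SE 0.13) in CTX over UT, -0.13 (SE 0.16) in CAU over CTX and -0.06 (SE 0.17) in CAU over UT in the authors' deposited table. Bcl2l10, a BCL2 family gene of the oocyte, was at 0.03 (SE 0.13) in CTX over UT, 0.03 (SE 0.16) in CAU over CTX and 0.07 (SE 0.17) in CAU over UT in the authors' deposited table.

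The signs of the members were uneven in the 2 comparisons that involve CTX. Positive members numbered 26 of 33 in CTX over UT, where 44.2% of all genes were positive. In CAU over CTX, 4 of 33 were positive, where 52.3% of all genes were. In CAU over UT, 20 of 33 were positive, where 47.8% of all genes were. Transcripts of the same oocytes are not independent of each other, and the comparisons share libraries, so these counts carry no test.

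Marker lists of granulosa cells and macrophages did hold called genes, while those of theca, mast and oviduct cells held none. The lists differed much in precision. In CTX over UT, a marker of median precision needed a 1.45-fold change to be called among granulosa markers and 1.74-fold among macrophage markers. The size needed was 4.13-fold for theca, 7.20-fold for mast and 29.4-fold for oviduct markers. The lack of calls in those lists therefore does not show that they were unchanged. Of 12 granulosa markers, 3 rose in CTX over UT (Inhba, Inhbb and Fst, median of the list 0.48), and 1 fell in CAU over CTX (Inhbb, median -0.13). In CTX over UT the intervals of 6 of the 12 included 0. Among these 6 were Foxl2 at 0.18 (SE 0.16), Amh at 0.14 (SE 0.14), Esr2 at 0.15 (SE 0.12) and Amhr2 at -0.14 (SE 0.09). Of 12 macrophage markers, 6 fell in CTX over UT (Csf1r, Cx3cr1, Adgre1, C1qa, C1qb and C1qc, median -0.96), and 2 rose in CAU over CTX (C1qb and C1qc, median 0.38). Of all genes, 0.472% were called higher and 0.82% lower in CTX over UT, and 0.312% and 0.13% in CAU over CTX. In CAU over UT, where 0.0518% of all genes were called, no granulosa or macrophage marker was. The list medians there were 0.30 for granulosa and -0.50 for macrophage markers. Of 9 theca markers 0 passed in CTX over UT or CAU over CTX, with medians of 0.07 and 0.06. Ptch1, a hedgehog receptor gene and the theca marker with the smallest SE in CTX over UT, was at 0.33 (SE 0.14, p = 0.0203, adjusted p = 0.336) in CTX over UT, 0.09 (SE 0.17) in CAU over CTX and 0.43 (SE 0.19, p = 0.0261, adjusted p = 1.00) in CAU over UT in the authors' deposited table. Of 10 oviduct markers 0 passed, with all 10 negative in CTX over UT (median -1.15) and all 10 positive in CAU over CTX (median 0.90). Of all genes, 44.2% were positive in CTX over UT and 52.3% in CAU over CTX. The intervals of 9 of the 10 included 0 in CTX over UT, as did those of 7 in CAU over CTX. In CAU over UT 8 were negative and 2 positive, with a median of -0.13. Markers of the same cells are not independent, and both comparisons with CTX share its libraries, so these counts carry no test. Krt7, an epithelial keratin gene and the most precise oviduct marker in CTX over UT, was at -1.51 (SE 0.68, p = 0.0256, adjusted p = 0.379) in CTX over UT, 1.30 (SE 0.53, p = 0.0142, adjusted p = 0.589) in CAU over CTX and -0.21 (SE 0.71) in CAU over UT in the authors' deposited table. The part of these cell types in the values of the oocyte genes was not tested. Levels could not be compared between cell types, since no value per library was used.

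**Figure D3:**
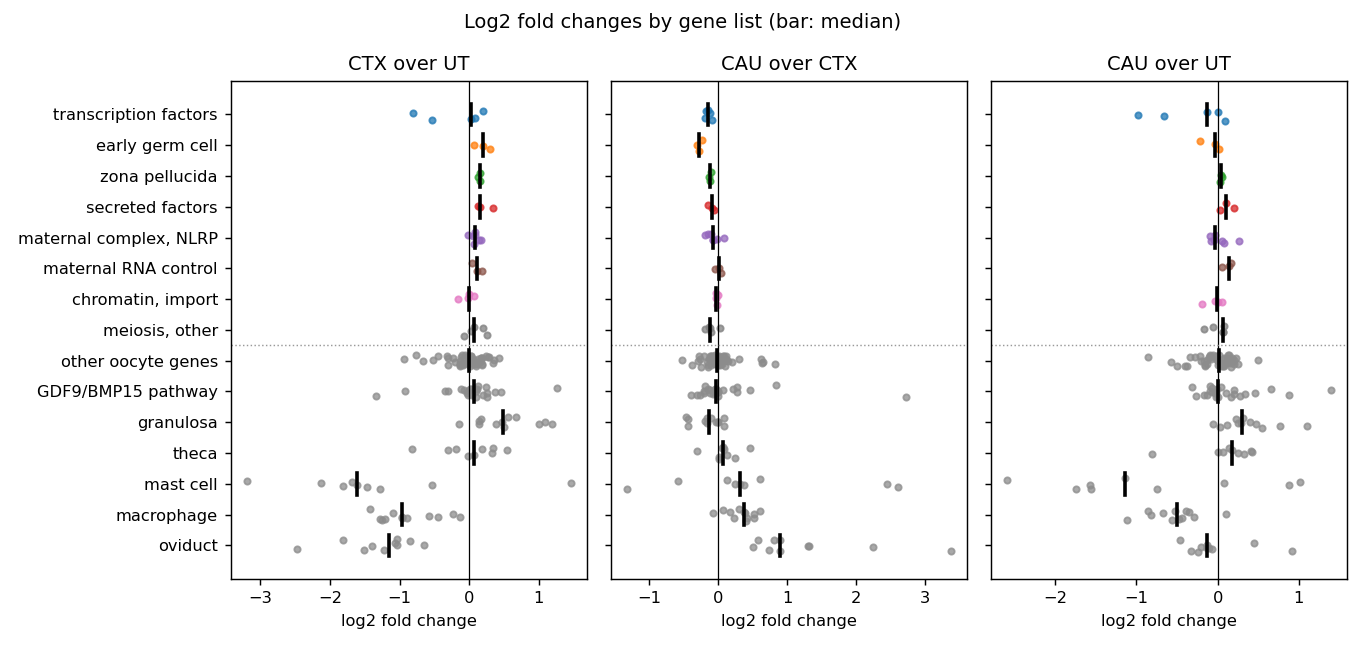
Log2 fold changes (x axis) of the members by role (coloured, above the dotted line) and of 7 other gene lists (grey, below it) in CTX over UT, CAU over CTX and CAU over UT; each point is a gene and each black bar the median of its list. The member medians lie between -0.28 and 0.20 in the 3 panels, while the macrophage median is at -0.96 and the granulosa median at 0.48 in CTX over UT.

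A wider list of oocyte genes also held no called gene. Of 52 further oocyte genes 50 were measured, and 0 of the 50 passed in any comparison, where 1.29% of all genes were called in CTX over UT, 0.442% in CAU over CTX and 0.0518% in CAU over UT. An unadjusted p under 0.05 was found for 4 of the 50 in CTX over UT, 2 in CAU over CTX and 0 in CAU over UT, where 10.2%, 5.36% and 3.46% of all genes had one. These counts are near or below the shares of all genes and are no result about the list. Their median was 0.0036 in CTX over UT, -0.02 in CAU over CTX and 0.01 in CAU over UT, and 25, 21 and 28 of the 50 were positive. Zbed3, which had the smallest SE of them in CTX over UT and is a partner of the subcortical maternal complex, was at 0.25 (SE 0.10, p = 0.00995, adjusted p = 0.234) in CTX over UT, -0.15 (SE 0.14) in CAU over CTX and 0.11 (SE 0.15) in CAU over UT in the authors' deposited table.

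Many members share a sequence feature upstream of their start, which the choice of members did not use. Upstream sequence was at hand for 25 of the 33 members, and Gdf9, Zp1, Zp2, Npm2, Dppa3, Mos, Bcl2l10 and Nlrp14 are named only. An E-box of the form CAGGTG, or CACCTG on the other strand, lay within 250 bases of a start in 13 of the 25 members and in 19.4% of the 27025 genes. In 10 of the 25 it began between 90 and 50 bases before the start, where 3.98% of all genes have it. These bounds were set after the positions were seen. The sites are shown with the 10 bases on each side, on the strand of the gene (GRCm38.p6, RefSeq), to let them be compared, and capitals mark the E-box.
Sohlh1 (chr2:25847303-25847328, minus strand): agtgggcaccCAGGTGctggttggat
Padi6 (chr4:140742706-140742731, minus strand): cctccaggctCACCTGtgaaccctta
Zar1 (chr5:72581152-72581177, minus strand): atggcaacagCAGGTGgtagggcttt
Zp3 (chr5:135980040-135980065, plus strand): agagggaattCAGGTGggagggtggg
Nobox (chr6:43309589-43309614, minus strand): agactccacaCACCTGgccaccccac
H1f8 (chr6:115944855-115944880, plus strand): ttcggctgctCAGGTGctaggcatgt
Rfpl4 (chr7:5116961-5116986, minus strand): taagaagagaCAGGTGgggagtaaga
Btg4 (chr9:51115921-51115946, plus strand): tagtggatagCACCTGtgtggggtga
Khdc3 (chr9:73102310-73102335, plus strand): tcccccacccCAGGTGcagccagtga
Oosp1 (chr19:11691095-11691120, minus strand): tagttactccCACCTGcaggtcatct
The 13 members with this E-box had a median log2 fold change of 0.07 in CTX over UT, and the 12 without had 0.15. In CAU over CTX these medians were -0.10 and -0.13, and in CAU over UT 0.03 and -0.0041. TATAAA, or TTTATA where it lies on the other strand, was found in 3 of the 25 and in 14.3% of all genes. The palindromic form CACGTG, added to the search after the first positions were seen, was found in 4 of the 25 members (Sohlh1, Zp3, Tle6 and Ddx4) and in 6.86% of all genes. The aligned sites of Zar1, Nobox, Btg4 and Khdc3 lie inside the bounds of the annotated gene, before an internal start. A match of letters is not a bound site, and no binding was measured.

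The members lie on 15 chromosomes, with 6 of them on chromosome 7 (Obox5, Zp2, Nlrp5, Nlrp2, Rfpl4 and Nlrp14). In RefSeq GRCm38.p6, 7 of the 33 overlap another annotated gene, among them Gdf9 with Uqcrq, Tle6 with Tle2 and Btg4 with Hoatz. No source used here gives the strand setting of the counting, so reads of such pairs may be shared. Obox5, Tcl1 and the NLRP genes belong to families of similar sequence, and how reads common to several copies were assigned is not given either, so their values are uncertain to that extent.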

How the data were processed

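RNA of ovarian tissue was sequenced in 9 samples, 3 each of CAU, CTX and UT, with SMARTer libraries per the labels' protocols. As tools of the authors, the processing notes of the submitters list RSEM 1.3.1, DESeq2 1.44.0, Bowtie2 and HISAT2, with the build GRCm38.p6 and no roles. The authors' deposited table gives, per the file headers, the log2 fold change of each gene in each comparison with its p-value and q-value from DESeq2 (the q-value is called adjusted p here). Depth per library is unknown. Between 215 and 272 genes were blank in a comparison and left out of it.

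The implied SE is the size of the log2 fold change over the size of the z that a 2-sided test would give that p-value, assuming an unshrunken Wald test. Intervals (95%) use a normal distribution. The arithmetic of the SE, the intervals and the adjustments was run on data simulated from a normal distribution with the implied SE. Such data hold the normal assumption by design, so they cannot show whether the deposited p-values meet it. The members and lists were chosen with earlier results of these data known. Every member is named, and of the other lists each gene called in any comparison, or the most precise gene in CTX over UT where none was; other genes named were chosen after their values were seen. Upstream sequences are from RefSeq (GRCm38.p6); CACGTG was added, and the bounds on CAGGTG set, after the first positions were seen. Alternatives changed the threshold, adjustment, centring, z spread and members, or replaced the member median by a mean weighted by the inverse square of the SE. Software was matplotlib 3.10.9, scipy 1.17.1, pandas 2.3.3 and numpy 2.4.6 under Python 3.11.15.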

Additional observations from a re-analysis of the deposited data

How the results depend on the processing

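The count of called members was 0 in each of the 3 comparisons under each alternative run: an adjusted p threshold of 0.10 or 0.01, adjustment over genes with an SE of at most 1, centring on the median gene, z divided by its robust spread, and Holm adjustment. The lowest adjusted p of a member under any of these was 0.0532, for Sohlh1 in CAU over UT with z divided by its spread of 0.711. In CTX over UT it was 0.0942, for Bmp15, after all values were centred on the median gene. Dividing z by its spread raised the calls over all genes to 255 in CAU over UT (10 before), 85 of them higher and 170 lower, and to 237 in CAU over CTX (85 before). Under Holm they were 60, 24 and 5 in CTX over UT, CAU over CTX and CAU over UT. An adjusted p threshold of 0.10 gave 415 in CTX over UT (249 before), and 0.01 gave 117 there and 43 in CAU over CTX. After centring on the median gene, calls in CTX over UT were 156 higher and 134 lower, where they had been 91 higher and 158 lower.

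Centring turned the signs of Ooep (0.0022), H1f8 (0.025) and Npm2 (0.015) in CTX over UT, and of no other member. The alternatives to the member median included a mean weighted by the inverse square of the SE. Over these, the member median or weighted mean ranged from 0.08 to 0.11 in CTX over UT. The range was from -0.11 to -0.09 in CAU over CTX and from 0.0046 to 0.03 in CAU over UT. Leaving out replicates was not run, since no value per library was used. No paired analysis was possible because the comparisons are the authors' own and hold no value per library. Precision limits Figla and Sohlh1 most: they would have needed changes of 3.35-fold and 2.43-fold to be called in CTX over UT.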

Other observations

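The genes outside the 33 that had an unadjusted p under 0.05 in the wider oocyte list are given here, chosen after their values were seen. Besides Zbed3 there were 3 in CTX over UT. Ccnb1, a cyclin B gene that other dividing cells express too, was at 0.35 (SE 0.13, p = 0.00828, adjusted p = 0.214), the lowest adjusted p of that list in CTX over UT in the authors' deposited table. Nlrp9a, an NLRP gene of the oocyte, was at 0.42 (SE 0.20, p = 0.0348, adjusted p = 0.430) in CTX over UT in the authors' deposited table. Sycp3, a gene of the meiotic chromosome axis, was at -0.94 (SE 0.45, p = 0.0380, adjusted p = 0.440) in CTX over UT in the authors' deposited table. There were 2 in CAU over CTX, and both of these are likewise genes that other cells express. Cd9, a tetraspanin gene needed in the egg for sperm fusion, was at 0.82 (SE 0.31, p = 0.00878, adjusted p = 0.472) in CAU over CTX in the authors' deposited table. Its values were -0.66 (SE 0.38) in CTX over UT and 0.17 (SE 0.62) in CAU over UT in the authors' deposited table. Plat, the tissue plasminogen activator gene, was at 0.64 (SE 0.30, p = 0.0364, adjusted p = 0.831) in CAU over CTX in the authors' deposited table. For Plat the values were -0.77 (SE 0.63) in CTX over UT and -0.13 (SE 0.72) in CAU over UT in the authors' deposited table. Among the 24 genes of the GDF9 and BMP15 pathway, those at this p and not already called were Bmpr2 and Bmpr1b, given above, with Ptgs2 and Slc38a3. Ptgs2, the prostaglandin synthase gene of the cumulus, was at 2.73 (SE 1.03, p = 0.00782, adjusted p = 0.451) in CAU over CTX in the authors' deposited table. Slc38a3, an amino acid transporter gene of cumulus cells, was at 0.46 (SE 0.17, p = 0.00601, adjusted p = 0.407) in CAU over CTX in the authors' deposited table. For Slc38a3 the values were -0.31 (SE 0.37) in CTX over UT and 0.16 (SE 0.35) in CAU over UT in the authors' deposited table. None of these genes passed over all genes.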
